A study of Mus musculus with 9 samples.

Results

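The forelimb bud mesenchyme that expressed *Hoxa11* and *Hoxd11* without markers of its neighbours, here called the *Hoxa11* cells, was described in single-cell RNA-seq libraries of paired forelimb buds, taken from mice at embryonic day E10.75 with 37 to 39 somites. The 9 libraries were 3 each of wild-type (Wt) embryos, of embryos homozygous for *EC1CRM8*Δ/Δ (*E1C8*Δ/Δ) and of embryos homozygous for *EC1CRM5*Δ/Δ (*E1C5*Δ/Δ). Both mutant alleles lack the EC1 enhancers of *Grem1*, the gene of a secreted BMP antagonist, together with the element CRM8 or the enhancer CRM5. CRM8 is highly conserved, but the study reports no obvious enhancer activity for it in a reporter assay. All genotypes were in the same Swiss Albino background, and the deletions are present in every cell of the embryo. The *Hoxa11* cells numbered 3449 of 34671 mesenchymal cells, of 52432 cells past the filters and of 133086 barcodes.

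A cell was kept with more than 2500 genes, fewer than 200000 unique molecular identifiers (UMIs, counts of RNA molecules) and less than 10% mitochondrial UMIs. It was mesenchymal with at least 3 UMIs of *Prrx1*, a transcription factor gene of limb mesenchyme, and no UMI of *Lbx1* (muscle precursors), *Epcam* (ectoderm), *Cdh5* (endothelium) or *Tyrobp* (myeloid cells). It was a *Hoxa11* cell with at least 3 UMIs each of *Hoxa11* and *Hoxd11*, *Sox9* below 5 per 10000 UMIs, at most 2 UMIs of *Grem1* and no UMI of *Hoxa13*, *Shh*, *Osr1* and *Sostdc1*. These measured values chose the cells, so the levels of these genes, the shares of cells and the differences in level from other cells are given as description, without a test. Tests over libraries were made of genotypes inside the chosen cells, and of whether the genotype effect differed from that in other cells, on genes that the rule did not use.

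The paralogous genes *Hoxa11* and *Hoxd11* encode homeodomain transcription factors that act together in the zeugopod, the limb segment of radius and ulna, whose elements are severely shortened when both are lost. In the growing limb bud *Hoxa11* is expressed proximal to *Hoxa13*, which marks the autopod (hand plate). Proximal cells express *Meis* genes in the presence of retinoic acid, while distal cells are held undifferentiated by FGF from the apical ectodermal ridge and by CYP26B1, which breaks down retinoic acid. GREM1 blocks BMP ligands in the mesenchyme and so helps to maintain this ridge.

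*Hoxa11* (ENSMUSG00000038210) lies on the minus strand at chr6:52242106-52245810, and *Hoxd11* (ENSMUSG00000042499) on the plus strand at chr2:74679557-74687016 (mm10, GENCODE M21). The antisense RNA gene *Hoxa11os* (ENSMUSG00000086427) overlaps *Hoxa11* on the other strand, at chr6:52244393-52249799. In the mesenchyme 9171 cells passed both *Hoxa11* and *Hoxd11* limits. Of these, 2023 had *Osr1* UMIs, 1965 had 3 or more *Grem1* UMIs, 1623 had *Hoxa13*, 1201 had *Sostdc1*, 715 had *Shh* and 694 were past the *Sox9* limit, with overlaps between these sets. Just inside the rule were 756 cells with 3 *Hoxa11* UMIs, against 880 cells with 2 that met every other criterion. The corresponding numbers were 213 and 242 for *Hoxd11*, 385 cells with 2 *Grem1* UMIs against 279 with 3, and 184 cells with *Sox9* between 4 and 5 per 10000 against 114 between 5 and 6. The chosen cells therefore border on others without a gap. They had a median of 34403 UMIs, of which 5 were of *Hoxa11* and 11 of *Hoxd11*, and 68.7% held no *Grem1* UMI.

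The libraries differed in the number and depth of *Hoxa11* cells. Wt held 336, 441 and 30 of them, *E1C8*Δ/Δ 36, 449 and 575, and *E1C5*Δ/Δ 426, 235 and 921, with median depths per library of 20332.0 to 50384.5 UMIs a cell. Wt replicate 3 and *E1C8*Δ/Δ replicate 1 thus rest on few cells. Judged from Y-linked UMIs and *Xist*, the Wt libraries came from males, and 2 of the 3 libraries of either mutant came from females. Sex and genotype were thus partly confounded in every comparison with Wt. *Xist* was at 23.4 CPM in Wt replicate 1, above the at most 9.65 CPM of the other male libraries and below the at least 675 CPM of the female ones. Only 3 barcodes of *Hoxa11* cells occurred in more than 1 library. The summed level of 9 erythroid genes in the *Hoxa11* cells ranged from 348 to 5793 CPM (counts scaled to the library's total) in Wt, from 240 to 9113 CPM in *E1C8*Δ/Δ and from 725 to 2902 CPM for *E1C5*Δ/Δ. The lists of 8 muscle, 10 ectoderm, 8 endothelial and 8 myeloid markers each summed to at most 20.1 CPM in every library.

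The *Hoxa11* cells made up 8.18%, 7.77% and 5.08% of mesenchymal cells in the Wt libraries. They made up 8.76%, 6.84% and 9.48% in *E1C8*Δ/Δ, which overlaps Wt, and 15.1%, 14.5% and 13.5% in *E1C5*Δ/Δ, above every Wt and *E1C8*Δ/Δ library. The means were 7.01% ± 1.69, 8.36% ± 1.36 and 14.4% ± 0.793 (SD, n = 3 each). The rule limits *Grem1*, whose enhancers are deleted in the mutants. Without that criterion the means were 10.1% ± 2.82, 9.55% ± 1.70 and 18.8% ± 1.32. Cells were also thinned to 10000 UMIs and then chosen by separate limits. These asked for any UMI of *Prrx1*, *Hoxa11* and *Hoxd11* and none of *Grem1*, with the other criteria unchanged. They took in 4994 cells, many of which were not *Hoxa11* cells by the rule. In Wt replicate 1, for example, 192 of 499 were. The mean share after thinning was 12.2% ± 0.455 in Wt. It was then 16.2% ± 2.76 for *E1C8*Δ/Δ and 18.9% ± 1.27 for *E1C5*Δ/Δ. The *E1C5*Δ/Δ libraries lay above all Wt libraries in each of these versions, whereas the place of *E1C8*Δ/Δ depended on the version, since its 3 libraries lay above Wt only after thinning.

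**Figure D1:**
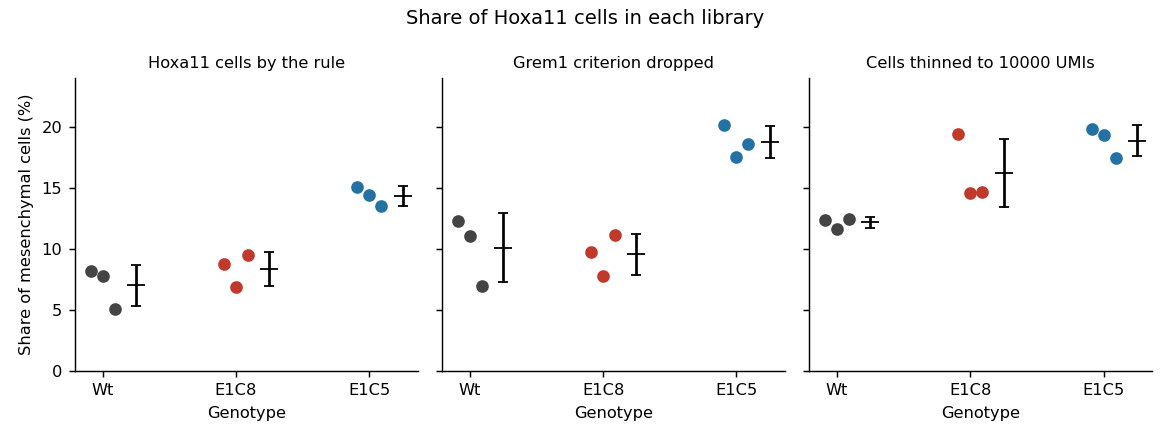
Share of *Hoxa11* cells among mesenchymal cells (y axis, %) in each library by genotype (E1C8 and E1C5 stand for the homozygous mutants), by the rule, without the *Grem1* criterion and after thinning. Points are libraries and bars the mean ± SD (n = 3). By the rule, *E1C5*Δ/Δ lies at 13.5% to 15.1% and Wt at 5.08% to 8.18%.

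The genes that define the cells had the following levels. *Hoxa11* was at 168, 151 and 141 CPM in Wt, 171, 199 and 178 CPM in *E1C8*Δ/Δ and 151, 146 and 140 CPM in *E1C5*Δ/Δ. *Hoxd11* was at 335, 301 and 396 CPM in Wt, 317, 351 and 323 CPM in *E1C8*Δ/Δ and 367, 357 and 327 CPM in *E1C5*Δ/Δ. The 3 genotypes overlap for *Hoxd11*, and the *E1C8*Δ/Δ libraries had the highest *Hoxa11* levels. The floor of 3 UMIs asks for a higher CPM in a shallower cell. Median depths of the *Hoxa11* cells were 32509.5, 36153 and 50384.5 UMIs in Wt and 35481, 20332 and 27417 UMIs in *E1C8*Δ/Δ. They were 48210.5, 34206 and 38749 UMIs in *E1C5*Δ/Δ, and the part of depth in the *Hoxa11* levels was not tested. *Fgf10*, the mesenchymal ligand that signals to the ridge, and *Frzb*, a secreted WNT inhibitor, had been named as markers with them but were not part of the rule. *Fgf10* reached 28.6 to 57.5 CPM in *Hoxa11* cells against 14.6 to 34.4 CPM in other mesenchymal cells, and *Frzb* 37.5 to 65 against 18.1 to 34.7 CPM. Each was higher in *Hoxa11* cells within all 9 libraries, with median log2 ratios of 0.78 (0.62 to 1.00) for *Fgf10* and 0.79 (0.63 to 1.03) for *Frzb*. In cells thinned to 10000 UMIs, *Fgf10* was seen in a median of 28.9% of *Hoxa11* cells, 15.7% of other mesenchymal cells and 1.63% of globin-rich cells, which measure free RNA. The like values for *Frzb* were 34.6%, 21.9% and 2.17%. Neither marker was particular to these cells. Those that met the rule except for *Grem1* had median levels of 37.0 CPM of *Fgf10* and 45.3 CPM of *Frzb*. Autopod cells, with at least 2 UMIs each of *Hoxa13* and *Hoxd13*, had 35.2 and 35.3 CPM, against 35.1 and 49.7 CPM in *Hoxa11* cells. Position in the limb was not measured in these dissociated cells, so the name of zeugopod level rests on the *Hox* genes.

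Along the *Hox* clusters some neighbours of the selected genes were also higher in *Hoxa11* cells than in other mesenchyme. *Hoxa11os* was at 113 to 196 CPM, with a median log2 ratio of 1.17 over other mesenchymal cells. *Hoxa10* was at 195 to 323 CPM with a ratio of 0.80 and *Hoxa9* at 171 to 251 CPM with a ratio of 0.38. *Hoxd10* was at 92.4 to 134 CPM with a ratio of 0.60, and *Hoxd8* had a ratio of 0.52. These 5 genes were higher in *Hoxa11* cells in all 9 libraries. Of 5904 genes off X and Y with at least 20 CPM in either group, 1678 had the same sign, higher or lower, in all 9 libraries. *Hoxd12*, next to *Hoxd11*, was not set apart, with a ratio of 0.10 and a higher level in 5 of 9 libraries, and *Hoxd9* had a ratio of 0.22 and was higher in 8 of 9. Further towards the 3′ end of the HoxA cluster the order turned, and *Hoxa4* was lower in all 9 libraries (ratio -0.52). *Hoxd13*, which is shared with the autopod, was at 16.4 to 32.6 CPM, and at 17.6 to 45 CPM in other mesenchyme. Its 114 to 211 CPM in autopod cells were set by the choice of those cells. *Hoxa11os* was the exception within the group, since it was higher in autopod cells, at 175 to 249 CPM, than *Hoxa11* itself, at 53.5 to 130 CPM. In *Hoxa11* cells the order of the pair was mixed, with *Hoxa11os* below *Hoxa11* in 8 of 9 libraries and above it in Wt replicate 3. The rule set a floor for *Hoxa11* in these cells and none for *Hoxa11os*, while autopod cells had no floor for either. The order in *Hoxa11* cells, and its contrast with autopod cells, was thus in part set by the choice of cells. The libraries count the 3′ ends of transcripts with strand, so the pair is counted apart.

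**Figure D2:**
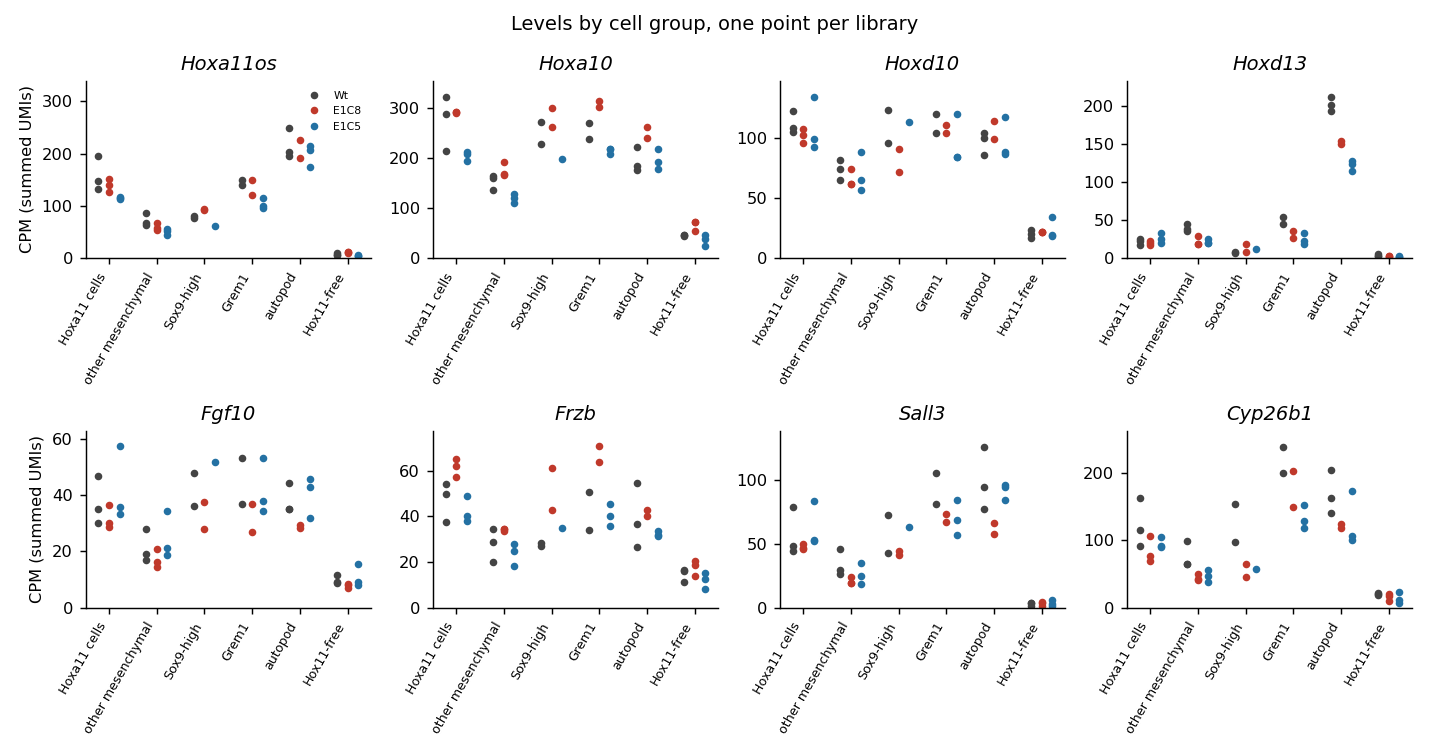
Level (y axes, CPM of the summed UMIs) of 8 genes in 6 groups of mesenchymal cells, 1 point per library with at least 20 cells of the group, coloured by genotype. *Hoxa11os* is highest in autopod cells, *Hoxa10* is at 195 to 323 CPM in *Hoxa11* cells and *Hoxd13* is at 114 to 211 CPM in autopod cells, which were chosen by it.

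Among genes with at least 20 CPM, the 12 with the highest ratios over other mesenchyme, besides *Hoxa11* and *Hoxa11os*, were led by *Mcub*, a regulator of mitochondrial calcium uptake (1.18), and *Pmaip1*, the proapoptotic NOXA gene (1.12). They also held *Zic2* (1.08), *Zic5* (1.04) and *Sall3* (1.08), genes of zinc-finger transcription factors, the LIM-domain genes *Lmo1* (1.00) and *Lhx2* (0.86), *Rassf9* (0.92), the FGF feedback inhibitor *Spry4* (0.90) and *Cyp26b1* (0.89). The 8 with the lowest ratios were *Osr1*, which the rule sets to 0, then *Irx3* (-2.17), *Gria2* (-2.11), *Fibin* (-2.05), *Gsc* (-2.01), *Irx5* (-2.0), *Igfbp5* (-1.96) and *Nr2f1* (-1.92). *Irx3*, *Irx5* and *Gsc* encode homeodomain factors of the proximal bud. Each of these genes had the same sign in all 9 libraries, by the rule that picked them.

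The lists of proximal and distal genes share members with the highest and lowest ratios, so they are not a separate view. The shared genes include *Irx3*, *Irx5* and *Gsc* of the proximal list and *Sall3*, *Lmo1*, *Cyp26b1* and *Lhx2* of the distal list. All 15 proximal genes were lower in *Hoxa11* cells than in other mesenchymal cells in all 9 libraries, with median ratios from -0.43 for *Tbx15* to -2.23 for *Emx2*. Among all genes of at least 20 CPM, a level the lists did not require, 1678 of 5904 had 1 sign throughout. *Meis2* was at 25 to 96.6 CPM in *Hoxa11* cells, 227 to 318 CPM in other mesenchyme and 22.5 to 101 CPM in autopod cells. *Meis1* was at 12.2 to 33.1 CPM, against 56.4 to 84.9 CPM in other mesenchyme. Of the 13 distal progenitor genes, 9 were higher in all 9 libraries, from *Sall3*, *Lmo1*, *Cyp26b1* and *Lhx2* above to *Msx1* (0.72), *Mycn* (0.55), *Asb4* (0.50), *Wnt5a* (0.46) and *Lhx9* (0.38). *Lmo2* (0.51) and *Msx2* (0.08) were higher in 7 of 9, *Sp8* (-0.12) in 2 of 9, and *Ldb1* (-0.08) was lower in all 9. *Sall3* was at 44.6 to 83.2 CPM in *Hoxa11* cells and at 57.2 to 126 CPM in autopod cells, but at 1.39 to 5.87 CPM in mesenchymal cells without *Hoxa11* and *Hoxd11* UMIs. Anterior and posterior genes gave no single direction: *Pax9* (0.80) was higher in all 9 libraries and *Alx4* (-0.74) lower, and *Hand2*, a posterior gene, had a ratio of 0.09 and was higher in 5 of 9.

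**Figure D3:**
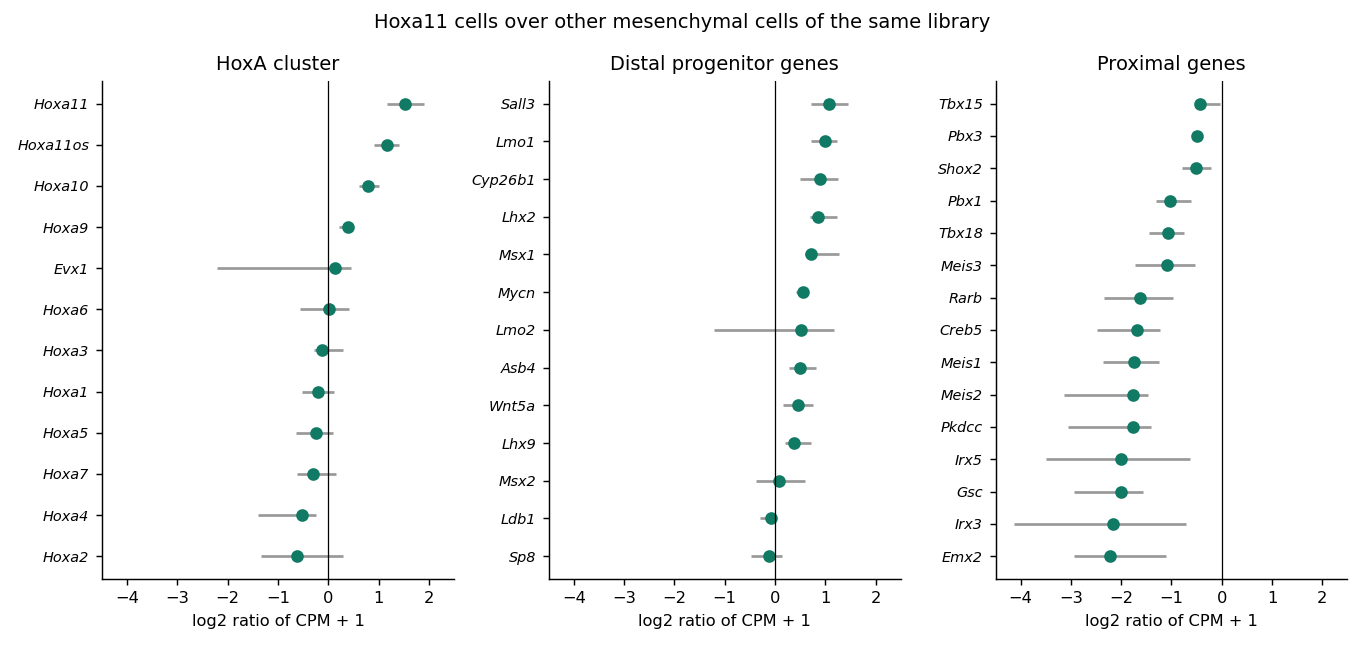
Log2 ratio of CPM + 1 (x axes) in *Hoxa11* cells over other mesenchymal cells of the same library for the HoxA cluster without *Hoxa13*, distal progenitor genes and proximal genes. Points are medians and lines the range over 9 libraries. All 15 proximal genes lie below 0, down to -2.23 for *Emx2*.

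Differences between mutant and Wt libraries in these cells were tested by edgeR's quasi-likelihood test. It used the UMIs of *Hoxa11* cells summed per library, with Benjamini-Hochberg adjustment over 12049 autosomal genes. No Wt library came from a female, so the effects of genotype and sex can be told apart only in part. With both mutants set against Wt, 23 genes changed (0.191% of those tested), 10 higher (0.083%) and 13 lower (0.108%), and 1498 had an unadjusted p under 0.05. All 6 mutant libraries lay above all Wt libraries for 1.76% of genes and below them for 1.91%. The genes that fell include *Enpp2*, *Pmaip1*, *Tcf7l2* and *Dst*, and those that rose include *Meis2*, *Lmo2* and *Ptn*. In bulk sums such as these, fewer positive cells and less RNA per cell cannot be told apart.

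*Enpp2* encodes autotaxin, the secreted enzyme that makes lysophosphatidic acid. Its TMM-scaled CPM were 15.6, 15.4 and 19.0 in Wt, 5.78, 7.94 and 6.07 in *E1C8*Δ/Δ and 4.57, 4.64 and 4.87 in *E1C5*Δ/Δ. No mutant library reached a Wt library. The log2 fold change was -1.51 ± 0.14 (SE; edgeR, adjusted p = 0.00032).

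*Pmaip1*, the gene of the proapoptotic BH3-only protein NOXA, was at 59.0, 61.0 and 46.9 CPM in Wt, 29.5, 34.8 and 35.0 CPM in *E1C8*Δ/Δ and 27.0, 21.6 and 24.2 CPM in *E1C5*Δ/Δ. All mutant libraries were lower, with *E1C5*Δ/Δ lowest, and the fold change was -0.99 ± 0.11 (edgeR, adjusted p = 0.00149). *Tcf7l2*, a transcription factor gene of the WNT pathway that is also expressed in muscle connective tissue, was at 158, 143 and 158 CPM in Wt, 77.7, 97.2 and 102 CPM in *E1C8*Δ/Δ and 91.6, 90.0 and 94.7 CPM in *E1C5*Δ/Δ. The mutants did not overlap Wt, and the fold change was -0.71 ± 0.09 (edgeR, adjusted p = 0.00588). *Enpp2* and *Pmaip1* passed the threshold under every alternative tried. *Tcf7l2* passed in 17 of 19, and lost the call with a term for embryo sex (adjusted p = 0.238) and without the libraries of under 100 *Hoxa11* cells (adjusted p = 0.0594). For *Enpp2*, *Pmaip1*, *Tcf7l2* and *Dst*, the difference of the effect from that in other mesenchymal cells, tested further below, did not pass.

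*Dst*, a cytoskeletal linker gene, was at 39.0, 38.0 and 48.9 CPM in Wt, 9.64, 16.7 and 17.9 CPM in *E1C8*Δ/Δ and 25.1, 28.2 and 31.4 CPM in *E1C5*Δ/Δ. The fall was deeper in *E1C8*Δ/Δ, and both mutants together gave -0.93 ± 0.14 (edgeR, adjusted p = 0.019). *Sept2*, a septin gene, fell by 0.83 on the log2 scale, and at 12.9 to 14.3 CPM in *E1C5*Δ/Δ the libraries came close to the lowest Wt library at 14.9 CPM. The annotation holds an overlapping feature of the same name and strand, so the *Sept2* reads may be divided between both. Lower still in level were *Lbp* (-2.39), *Mmrn2* (-1.73), the RNA gene *4930412C18Rik*, at most at 2.23 CPM, and *Eif3j2* (-2.73), of which *Lbp* and *Mmrn2* were at most at 8.15 CPM in every library. *Mmrn2* is known from endothelium. It was at 3.58 to 8.15 CPM in Wt and 0.647 to 0.894 CPM in *E1C5*Δ/Δ, where the 8 endothelial markers summed to 13.5 to 18.3 CPM and 16.9 to 17.7 CPM. *Eif3j2* and the predicted gene *Gm3636*, which rose from at most 0.0795 CPM in Wt to between 0.642 and 2.49 CPM in the mutants, have near-identical copies, so their reads may be divided between copies and their values are uncertain. The call was lost in 3 of 19 alternatives for *Dst*, in 6 for *Sept2* and *Eif3j2*, in 7 for *Lbp* and *Mmrn2*, and in 11 of 18 for *4930412C18Rik*.

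*Meis2*, a homeobox gene of the proximal limb, lies on chromosome 2 like *Grem1*, at chr2:115863064-116065839, whereas *Grem1* lies at chr2:113746164-113758646. It was at 45.6, 57.9 and 25.1 CPM in Wt, 89.3, 97.3 and 98.6 CPM in *E1C8*Δ/Δ and 76.4, 87.9 and 92.4 CPM in *E1C5*Δ/Δ. All 6 mutant libraries were above all Wt libraries, and the rise was 0.97 ± 0.16 (edgeR, adjusted p = 0.0319). With cells chosen after thinning the rise was 0.48 (adjusted p = 0.128), with at least 5 UMIs of each *Hox* gene 0.53 (adjusted p = 0.192) and with a term for sex 1.01 (adjusted p = 0.255). *Lmo2*, a LIM-domain cofactor gene of distal mesenchyme and of blood cells, was at 23.2, 21.6 and 13.6 CPM in Wt, 31.5, 30.6 and 33.8 CPM in *E1C8*Δ/Δ and 40.5, 40.2 and 40.2 CPM in *E1C5*Δ/Δ. The mutants did not overlap Wt, and the rise was 0.78 ± 0.12 (edgeR, adjusted p = 0.0194). After thinning, *Lmo2* was seen in a median of 21.1% of *Hoxa11* cells and 27.3% of globin-rich cells, and in 8.84% to 13% of other mesenchymal cells, and the part of free RNA in its level was not tested. *Ptn*, the gene of the heparin-binding growth factor pleiotrophin, was at 519, 610 and 506 CPM in Wt, 876, 792 and 810 CPM in *E1C8*Δ/Δ and 946, 806 and 796 CPM in *E1C5*Δ/Δ. Its rise of 0.62 ± 0.11 (edgeR, adjusted p = 0.0344) was seen in all mutant libraries. Of the 19 alternatives, 8 ended the call of *Meis2*, 7 that of *Lmo2* and 10 that of *Ptn*. With the replicate number as a block none of the 3 passed (edgeR, adjusted p = 0.099, 0.099 and 0.109), at rises of 1.00, 0.80 and 0.62. The calls of *Lmo2* and *Ptn* were lost, among others, with thinning, where the rises were 0.48 and 0.38 (adjusted p = 0.245 and 0.119), with the sex term, where they were 0.82 and 0.57 (adjusted p = 0.238 and 0.391), without libraries of under 100 *Hoxa11* cells (adjusted p = 0.0654 and 0.214) and, for *Ptn*, without Wt replicate 3 (adjusted p = 0.124). Of the 23 changed genes, 6 lie on chromosome 2, where 983 of the 12049 tested genes lie. The count of 23 fell to 5 without *E1C8*Δ/Δ replicate 1 or replicate 2, to 13 without Wt replicate 3 and to 15 without Wt replicate 2, and rose to 46 without *E1C5*Δ/Δ replicate 3. It was 3 with the term for sex.

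In most of the lists no gene passed this test, against 0.191% of all genes tested. *Meis2* was the only one of 15 tested proximal genes, *Lmo2* the only one of 12 distal progenitor genes and *Tcf7l2* the only one of 17 tendon and connective tissue genes. The proximal list had a median log2 fold change of 0.70, with 12 of 15 genes positive, where all genes tested had a median of -0.01. None of the 10 tested genes of the HoxA cluster and none of 7 of the HoxD cluster passed, with medians of -0.01 and -0.06. *Hoxa11os* (-0.28 ± 0.11), *Fgf10* (-0.05 ± 0.16) and *Frzb* (0.18 ± 0.11) did not pass (edgeR, adjusted p = 0.316, 0.944 and 0.551). No gene passed in the lists of BMP ligands, receptors, targets and antagonists, FGF ligands and response, WNT ligands, receptors and inhibitors, hedgehog, retinoic acid, notch, cartilage, ephrins and cell cycle.

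**Figure D4:**
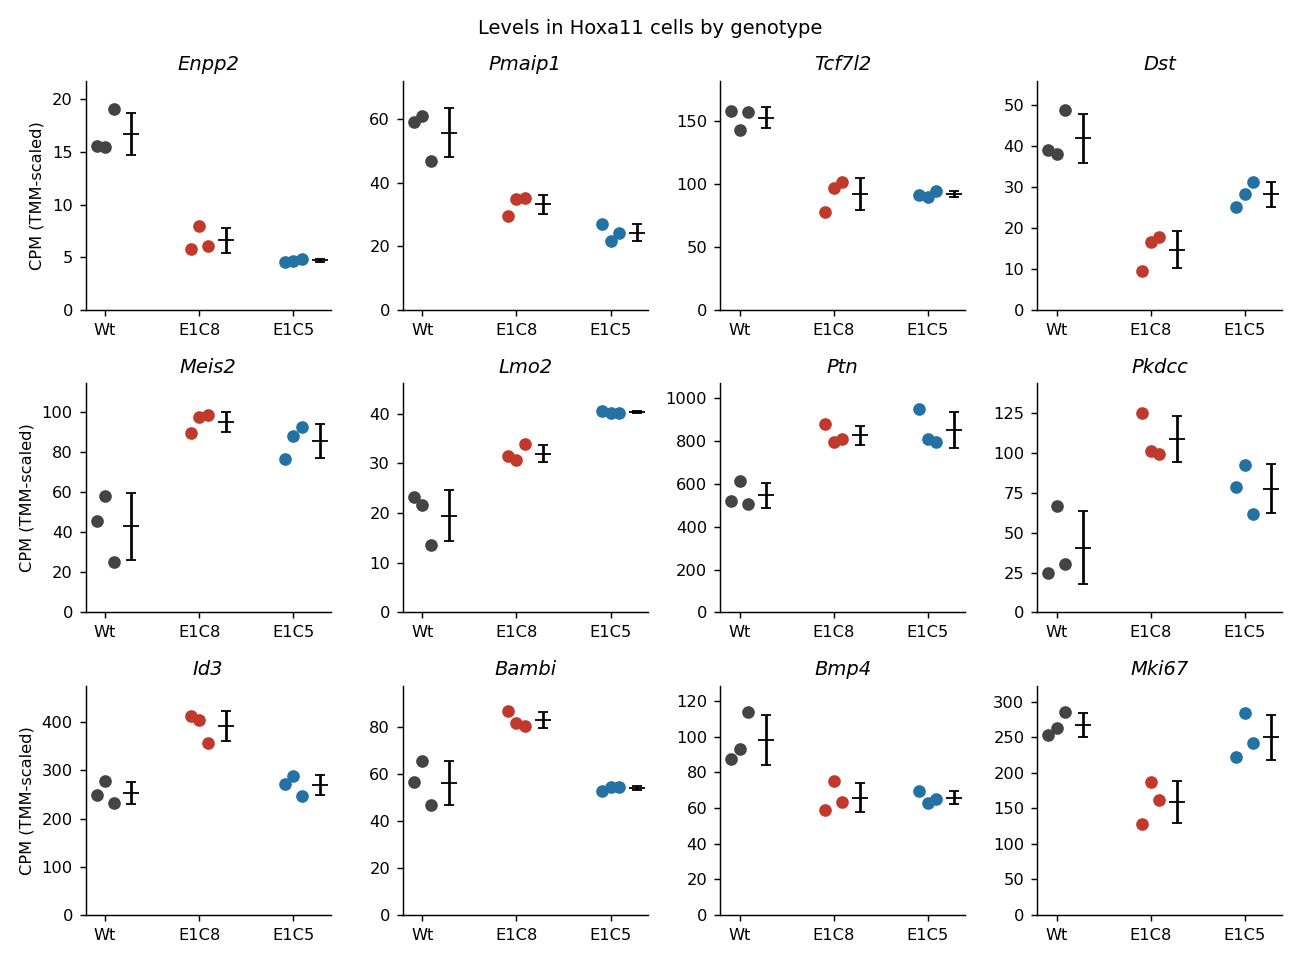
Level in *Hoxa11* cells (y axes, TMM-scaled CPM) of 12 genes by genotype. Points are libraries and bars the mean ± SD (n = 3). *Enpp2* is at 15.4 to 19.0 CPM in Wt and at 4.57 to 7.94 CPM in the mutants, and *Meis2* is higher in all mutant libraries.

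The number of genes past the test differed between the mutants. Such a count depends on the spread between libraries as well as on the size of change, so it does not show which mutant changed more. In *E1C8*Δ/Δ against Wt, 548 genes changed (4.55% of those tested), 190 higher (1.58%) and 358 lower (2.97%). In *E1C5*Δ/Δ 14 genes changed (0.116%), 3 higher (0.0249%) and 11 lower (0.0913%). The mutants set against each other differed in 701 genes (5.82%), of which 278 were higher (2.31%) and 423 lower (3.51%) in *E1C8*Δ/Δ. These counts were unsteady: that of *E1C8*Δ/Δ against Wt was 48 with a term for sex, 125 without the libraries of under 100 *Hoxa11* cells, 132 without *E1C8*Δ/Δ replicate 1, 94 without *E1C8*Δ/Δ replicate 2, 187 without *E1C8*Δ/Δ replicate 3 or Wt replicate 1, 151 without Wt replicate 2 and 914 without *E1C5*Δ/Δ replicate 3. That of *E1C5*Δ/Δ was 29 without Wt replicate 1 and 9 without Wt replicate 3, *E1C8*Δ/Δ replicate 1 or *E1C5*Δ/Δ replicate 1. That between the mutants was 273, 186 and 240 without *E1C8*Δ/Δ replicates 1, 2 and 3 in turn, and 388 and 439 without *E1C5*Δ/Δ replicates 2 and 3. The list genes named next were chosen after their values were seen.

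Among BMP targets, 4 of 12 tested genes rose in *E1C8*Δ/Δ, where 1.58% of all genes did, and none changed in *E1C5*Δ/Δ, with list medians of 0.43 and -0.06. *Id3*, an inhibitor of basic helix-loop-helix factors, was at 250, 277 and 232 CPM in Wt, 414, 405 and 357 CPM in *E1C8*Δ/Δ and 271, 289 and 248 CPM in *E1C5*Δ/Δ. Only *E1C8*Δ/Δ was above all Wt libraries, by 0.62 ± 0.11 (edgeR, adjusted p = 0.0101), and the mutants differed by 0.54 ± 0.11 (adjusted p = 0.0139). *Bambi*, a BMP pseudoreceptor gene, was at 56.9, 65.6 and 46.9 CPM in Wt, 86.7, 82.0 and 80.5 CPM in *E1C8*Δ/Δ and 52.9, 54.5 and 54.6 CPM in *E1C5*Δ/Δ. It rose by 0.51 ± 0.12 in *E1C8*Δ/Δ (edgeR, adjusted p = 0.0304) and differed between the mutants by 0.61 ± 0.11 (adjusted p = 0.00924). *Id2* rose by 0.62 and *Msx2* by 0.88 in *E1C8*Δ/Δ. The call against Wt was lost in 4 of 19 alternatives for *Id3*, 8 for *Bambi*, 9 for *Msx2* and 10 for *Id2*. All 12 targets had a higher level in *E1C8*Δ/Δ than in *E1C5*Δ/Δ, as had 6018 of all 12049 genes tested. So had 10 of 10 genes of the HoxA cluster and 13 of 15 proximal genes, but only 3 of 12 FGF response genes. Of the targets 5 were past the test, where 2.31% of all genes were higher: *Id3*, *Bambi*, *Msx2*, *Dlx5* and *Dlx6*. Of these calls between the mutants, that of *Bambi* held in all 19 alternatives, while 2 to 6 alternatives ended the others. The 4 tested ectoderm genes were likewise all higher in *E1C8*Δ/Δ than in *E1C5*Δ/Δ, with a median of 1.36 and 2 past the test. The part of ectoderm RNA in the levels of the targets was not tested.

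Single genes of the BMP, FGF, WNT and hedgehog pathways also passed the test in *E1C8*Δ/Δ against Wt. *Bmp4*, a BMP ligand, was at 87.3, 93.1 and 114 CPM in Wt, 59.1, 75.2 and 63.4 CPM in *E1C8*Δ/Δ and 69.9, 62.6 and 65 CPM in *E1C5*Δ/Δ. Its change of -0.53 ± 0.13 passed in *E1C8*Δ/Δ (edgeR, adjusted p = 0.0339), while the -0.55 ± 0.12 of *E1C5*Δ/Δ did not (adjusted p = 0.136), and the mutants did not differ past the test (difference 0.02 ± 0.12, adjusted p = 0.956). *Twsg1*, a BMP-binding protein gene, fell by 0.56 and *Fgfr1*, the mesenchymal FGF receptor gene, fell by 0.45. The FGF-induced *Etv5* fell by 0.73 and the hedgehog effector gene *Gli2* fell by 0.57. *Fmn1*, the neighbour of *Grem1*, was at 4.06, 3.38 and 4.07 CPM in Wt and at 0, 1.29 and 1.47 CPM in *E1C8*Δ/Δ, below every Wt library (-1.55 ± 0.36, edgeR, adjusted p = 0.0304). The WNT inhibitor gene *Dkk1* rose by 1.19 and *Wnt11* by 1.51. Of the proximal genes, *Pkdcc*, *Meis1* and *Creb5* rose besides *Meis2* in *E1C8*Δ/Δ, by 1.32, 0.85 and 1.38. *Pkdcc*, the gene of a secreted kinase of the growing limb skeleton, was at 24.8, 66.7 and 30.6 CPM in Wt, 125, 101 and 99.6 CPM in *E1C8*Δ/Δ and 78.6, 92.6 and 61.9 CPM in *E1C5*Δ/Δ, and in *E1C5*Δ/Δ it overlapped Wt. By the direct test between the mutants, only *Etv5*, *Dkk1* and *Creb5* of these genes differed, calls that 12, 8 and 3 of 19 alternatives ended. *Twsg1*, *Fgfr1*, *Gli2*, *Fmn1*, *Wnt11*, *Meis1* and *Pkdcc* did not differ past that test. Their changes are thus not shown to be particular to *E1C8*Δ/Δ. Most of the calls in *E1C8*Δ/Δ against Wt were unsteady. Of 19 alternatives, 12 ended those of *Creb5*, *Wnt11* and *Gli2*, 11 that of *Fgfr1*, 10 that of *Bmp4*, 9 those of *Twsg1*, *Etv5* and *Fmn1*, 7 that of *Meis1*, 6 that of *Pkdcc* and 5 that of *Dkk1*.

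Of 22 cell cycle genes, *Mki67* and *Mcm4* fell in *E1C8*Δ/Δ, where 2.97% of all genes did. *Mki67*, a marker of cycling cells, was at 253, 264 and 285 CPM in Wt, 128, 187 and 162 CPM in *E1C8*Δ/Δ and 222, 285 and 243 CPM in *E1C5*Δ/Δ, a change of -0.72 ± 0.14 in *E1C8*Δ/Δ (edgeR, adjusted p = 0.0126). *Mcm4* fell by 0.49. The call was lost in 3 of 19 alternatives for *Mki67* and in 6 for *Mcm4*. The median of the list was 0.01 in *E1C8*Δ/Δ, with 11 of 22 genes positive. Genes of the stress of dissociation moved in the same libraries. *Dusp1* rose from 19.6 to 21.1 CPM in Wt to 33.6 to 41.1 CPM in *E1C8*Δ/Δ and *Ier2* from 168 to 213 CPM to 270 to 311 CPM, and 4 of 11 tested genes of the list were higher in *E1C8*Δ/Δ than in *E1C5*Δ/Δ, where 2.31% of all genes were. The summed level of the 12 stress genes was 2661 to 2744 CPM in Wt, 2793 to 3116 CPM in *E1C8*Δ/Δ and 2528 to 2657 CPM in *E1C5*Δ/Δ, and its part in the other changes was not tested. Markers of other cell types at low level moved too: the muscle precursor gene *Met* and the ectoderm genes *Fgf8* and *Wnt6* were higher in *E1C8*Δ/Δ than in *E1C5*Δ/Δ, and *Pf4*, a megakaryocyte gene, reached 64.0 CPM in *E1C8*Δ/Δ replicate 2 against at most 4.39 CPM in the other libraries. Their part was not tested. In *E1C5*Δ/Δ, besides *Lmo2* and *Tcf7l2*, the only list gene to change was *Col1a2*, a collagen gene, which fell by 0.66 from 176 to 184 CPM in Wt to 98.9 to 129 CPM and lost the call in 13 of 19 alternatives. In the mutants' comparison, *Hoxa10* was higher in *E1C8*Δ/Δ, at 292 to 308 CPM against 206 to 234 CPM, by 0.46 ± 0.12 (edgeR, adjusted p = 0.0399), a call that 9 of 19 alternatives ended.

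Whether the mutant effect in *Hoxa11* cells differed from that in other mesenchymal cells was tested by the interaction of cell group and genotype within libraries. The difference comes from this fit with library as a block, whereas the effects given for each cell group come from separate fits, so that the difference need not equal theirs. The difference passed for 35 of 13744 genes (0.255%), 20 with a more positive (0.146%) and 15 with a more negative (0.109%) effect in *Hoxa11* cells. Among the other mesenchymal cells themselves, 220 of 16142 genes changed (1.36%), 73 higher (0.452%) and 147 lower (0.911%). The rule kept cells with *Hoxa13* out of the *Hoxa11* cells, and such cells made up 12.8%, 13.2% and 14.6% of the other mesenchymal cells in Wt, 12.3%, 7.04% and 8.04% in *E1C8*Δ/Δ and 5.13%, 8.92% and 6.12% in *E1C5*Δ/Δ. The test was therefore repeated against other cells without *Hoxa13* UMIs and against cells without *Hoxa11* and *Hoxd11* UMIs, both chosen after the data had been seen, which gave 37 and 7 genes. Of the 35 genes, 23 and 6 were again among them. The count was 13 without Wt replicate 2, 22 without *E1C8*Δ/Δ replicate 3 and 10 with the term for sex.

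*Hoxd13*, the autopod *Hox* gene, showed the strongest difference. It was at 22.3, 17.9 and 24.4 CPM in Wt *Hoxa11* cells, 21.8, 19.5 and 17.4 CPM in *E1C8*Δ/Δ and 27.0, 21.4 and 32.2 CPM in *E1C5*Δ/Δ, so that the genotypes overlapped. The effect was 0.13 ± 0.15 in *Hoxa11* cells (edgeR, adjusted p = 0.767) and -0.87 ± 0.13 in other mesenchyme (adjusted p = 0.0125). In *Hoxa11* cells its direction was unsteady. It was -0.45 without the *Grem1* criterion, -0.18 after thinning, -0.10 with the term for sex and -0.014 without Wt replicate 2, none past the test. The difference of 1.04 ± 0.09 (adjusted p = 9.25e-08) was 0.47 against cells without *Hoxa13* (adjusted p = 0.00801) and did not pass against cells without the *Hox11* genes (0.86, adjusted p = 0.569). For the distal progenitor gene *Sall3* and the autopod gene *Jag1* the difference did not outlast this change of the comparison. That of *Sall3* was 0.52 and became 0.26 (adjusted p = 0.323), and that of *Jag1* was 0.68 and became -0.05 (adjusted p = 1).

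*Meis2*, *Ptn* and *Pkdcc* differed against each of the 3 comparison groups. For *Meis2* the effect was 0.97 in *Hoxa11* cells and 0.22 ± 0.11 in other mesenchyme, a difference of 0.64 ± 0.10 (edgeR, adjusted p = 0.00106). It was 0.72 against cells without *Hoxa13* (adjusted p = 0.00018) and 1.00 against cells without the *Hox11* genes (adjusted p = 0.000763). *Ptn* had effects of 0.62 and 0.28 ± 0.10, a difference of 0.32 ± 0.04 (edgeR, adjusted p = 3.91e-05) that was 0.40 and 0.66 in the other comparisons. *Pkdcc* had effects of 1.09 and 0.39 ± 0.21, a difference of 0.50 ± 0.10 (edgeR, adjusted p = 0.0263) that was 0.58 and 0.92 in the other comparisons. Without Wt replicate 2 the difference of *Pkdcc* was 0.85 (adjusted p = 0.00326). With cells of at least 5 UMIs of each *Hox* gene the difference was 0.29 for *Meis2* (adjusted p = 0.51) and 0.07 for *Pkdcc* (adjusted p = 0.986), and with cells chosen after thinning it was 0.09 for *Ptn* (adjusted p = 0.295). In the thinned repeat, chosen cells outside the rule also stayed in the comparison group, so the groups overlapped. The difference there was 0.26 for *Meis2* and 0.23 for *Pkdcc* (adjusted p = 0.0475), both still past the test. That of *Pkdcc* also did not pass without Wt replicate 1 (0.43, adjusted p = 0.185), without *E1C8*Δ/Δ replicate 2 (0.51, adjusted p = 0.0709), with DESeq2 (0.80, adjusted p = 0.26) or with the term for sex (0.54, adjusted p = 0.156). *Lmo2* had effects of 0.78 and -0.22 ± 0.18, a difference of 0.87 ± 0.13 (edgeR, adjusted p = 0.000499), which was 0.24 against cells without *Hoxa13* (adjusted p = 0.637) and 1.12 against cells without the *Hox11* genes (adjusted p = 0.0403). DESeq2 gave 1.03 and no call (adjusted p = 0.304).

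The cyclin gene *Ccnd1* (0.24), the posterior factor gene *Hand2* (0.42), which acts upstream of *Shh*, and the mesenchymal homeobox and T-box genes *Shox2* (0.25), *Meox2* (0.53) and *Tbx18* (0.35) also had more positive effects in *Hoxa11* cells, all past the test again against cells without *Hoxa13*. None of these 5 passed against cells without the *Hox11* genes, where the differences were 0.18, 0.26, 0.12, 0.43 and 0.096 in the same order (edgeR, adjusted p = 0.66, 0.79, 0.951, 0.66 and 0.967). Of 21 alternatives, 7 ended the call of *Meox2*, 5 each those of *Hand2*, *Shox2* and *Tbx18*, and 1 that of *Ccnd1*. Where the *Grem1* criterion was dropped, the 1075 added cells also stayed in the comparison group, so the groups overlapped. Without the *Grem1* criterion the difference was 0.19 for *Hand2* and 0.11 for *Meox2*, and without Wt replicate 2 *Hand2* (0.27), *Shox2* (0.18), *Tbx18* (0.25) and *Meox2* (0.43) did not pass. *Shox2* (0.22) and *Meox2* (0.48) also did not pass without *E1C8*Δ/Δ replicate 3. More negative effects were found for the LIM-homeobox genes *Lhx9* (-0.31) and *Lhx2* (-0.32), the hedgehog co-receptor gene *Gas1* (-0.33), *Msx1* (-0.38) and *Bmp4* (-0.30). *Msx1*, a BMP target, had effects of 0.15 in *Hoxa11* cells and 0.47 in other mesenchyme. *Bmp4* had effects of -0.54 and -0.25. These 5 passed against cells without *Hoxa13* as well, and none of them passed against cells without the *Hox11* genes. There the differences were -0.16 for *Lhx9*, -0.105 for *Lhx2*, -0.22 for *Gas1*, -0.12 for *Msx1* and -0.13 for *Bmp4*. Of 21 alternatives, 6 each ended the calls of *Lhx2*, *Msx1* and *Bmp4*, 4 that of *Lhx9* and 3 that of *Gas1*. Without the *Grem1* criterion the differences of *Lhx2*, *Msx1* and *Bmp4* were -0.11, -0.11 and -0.060, and without Wt replicate 2 none of the 5 passed, with -0.18 for *Lhx2* and -0.16 for *Msx1*. *Bmp4* also did not pass without *E1C8*Δ/Δ replicate 3 (-0.24, adjusted p = 0.0977). *Hoxd9* (-0.27), the hedgehog receptor and target gene *Ptch1* (0.32) and the early response gene *Fosb* (-0.27) lost the call in both repeats, though against cells without *Hoxa13* their differences were -0.21, 0.30 and -0.24. Against cells without the *Hox11* genes they were -0.26, -0.31 and -0.25, so that of *Ptch1* turned. Of 21 alternatives, *Ptch1* and *Fosb* kept the call in 10 each and *Hoxd9* in 14.

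**Figure D5:**
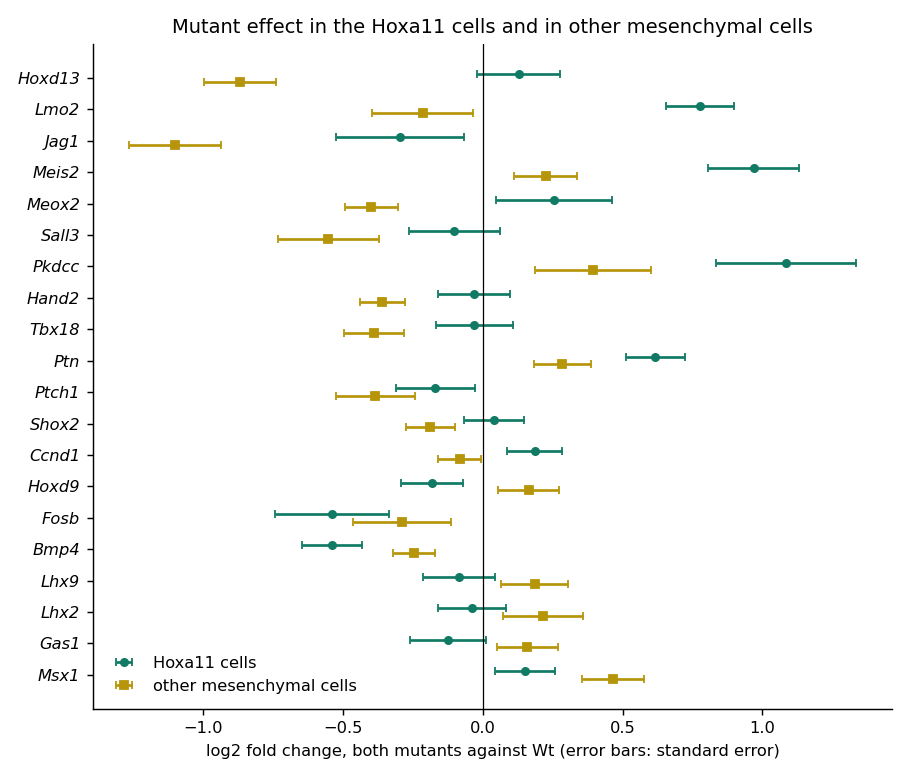
Log2 fold change of both mutants against Wt (x axis, ± SE) in *Hoxa11* cells and in other mesenchymal cells for the 20 genes named from the test of the difference, ordered by that difference. *Hoxd13* is at 0.13 in *Hoxa11* cells and -0.87 in other mesenchymal cells.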

How the data were processed

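Limb bud cells of 9 libraries were measured by droplet-based 3′ single-cell RNA-seq, 3 libraries per genotype as the sample labels give them. The deposited files hold counts of UMIs per gene and barcode, which the authors made with Cell Ranger 6.0.1 (mm10). The submitters' notes also name Seurat 4.3.0.1, and the values are whole, unscaled counts. The study's methods give the 3 replicates per genotype as biologically independent; whether they came from separate litters is not given in the sources used here.

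From the counts, cells were chosen by the rule of the report. The members and the gene lists were chosen with earlier results of these data known. No doublet caller was run, and doublets with other lineages were removed only through their markers. UMIs of the chosen cells were summed per library, which gave 1431541 to 41248993 UMIs in the tested genes, and tested with edgeR 4.0.16 (R 4.3.3; filterByExpr, TMM, quasi-likelihood, all 9 libraries in 1 fit, adjusted p under 0.05). Genes on X and Y, 4 transgene features and the 13 genes of the rule were left out of the tests. The difference of effects was tested with library as a block. With thinning or without the *Grem1* criterion, the cells added also stayed in the comparison group. Values per cell group are CPM of the summed UMIs with a pseudocount of 1 in log2 ratios, in groups of at least 20 cells. Thinning drew 10000 UMIs per cell and left out shallower cells (30 to 587 mesenchymal cells a library). Thinned cells were chosen by the separate limits given with the shares, not by the same rule. Autopod cells are named after *Hoxa13* and *Hoxd13* alone. DESeq2 1.42.0 and the other alternatives are given in the closing section. The test of both mutants against Wt and the test of the difference of effects were also run on simulated counts. The other steps were not.

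Named genes were, per direction, the 8 with the largest change of both mutants whose mutant libraries all lay on 1 side of Wt, list genes past the test, the 5 with the smallest p for the difference of effects, and the 12 highest and 8 lowest ratios over other mesenchyme. List genes named from the other tests were chosen after their values were seen. Gene positions are from GENCODE M21, which placed 32235 of 32289 features. Some genes are not reported here.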

Additional observations from a re-analysis of the deposited data

Results flagged for a closer look

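The mutant effect in *Hoxa11* cells differed from that in other mesenchymal cells, by the interaction test, for 20 named genes. The difference (log2, *Hoxa11* cells minus other cells) was positive for *Hoxd13* (1.04), *Lmo2* (0.87), *Jag1* (0.68), *Meis2* (0.64), *Meox2* (0.53), *Sall3* (0.52), *Pkdcc* (0.50), *Hand2* (0.42), *Tbx18* (0.35), *Ptn* (0.32), *Ptch1* (0.32), *Shox2* (0.25) and *Ccnd1* (0.24). It was negative for *Msx1* (-0.38), *Gas1* (-0.33), *Lhx2* (-0.32), *Lhx9* (-0.31), *Bmp4* (-0.30), *Fosb* (-0.27) and *Hoxd9* (-0.27). *Hoxa13* cells made up 12.8% to 14.6% of the comparison group in Wt and 5.13% to 12.3% in the mutants. Against other cells without *Hoxa13* the difference was -0.048 for *Jag1*, 0.26 for *Sall3* and 0.24 for *Lmo2*, which no longer passed, nor did *Ptch1* (0.30), *Fosb* (-0.24) and *Hoxd9* (-0.21). It was smaller for *Hoxd13* (0.47) and was about as large or larger for others such as *Meis2* (0.72), *Msx1* (-0.47) and *Hand2* (0.42). Against cells without the *Hox11* genes only *Meis2*, *Ptn*, *Pkdcc* and *Lmo2* of the named genes passed, and the difference was -0.12 for *Msx1* and 0.26 for *Hand2*.

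The mutants differed from each other, by the direct test, in 4 of the genes named from both mutants against Wt. *E1C8*Δ/Δ was higher than *E1C5*Δ/Δ for *Mmrn2* (1.69) and *Pmaip1* (0.47) and lower for *Dst* (-0.81) and *Sept2* (-0.92).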

How the results depend on the processing

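The number of genes that changed in *Hoxa11* cells is given in the order both mutants, *E1C8*Δ/Δ and *E1C5*Δ/Δ against Wt, and *E1C8*Δ/Δ against *E1C5*Δ/Δ, followed by the difference of effects. It was 362, 1047, 250, 1405 and 108 with no filter on low counts. With cells chosen after thinning it was 45, 876, 28 and 1078, and with at least 5 UMIs of both *Hox* genes, where Wt replicate 3 with 14 cells was left out, 9, 252, 7 and 422. Without libraries of under 100 *Hoxa11* cells, an alternative chosen after seeing the data, it was 3, 125, 9, 362 and 75. With the term for sex it was 3, 48 and 4 against Wt and 10 for the difference. DESeq2 gave 96 for both mutants, 37 for *E1C5*Δ/Δ and 19 for the difference, and dropping the *Grem1* criterion gave 61, 30 and 16. The last of these came from overlapping groups, since the cells added were also in the comparison group. Against cells without the *Hox11* genes the difference passed for 7. Leaving out 1 library gave 5 to 46, 94 to 914, 9 to 29, 186 to 914 and 13 to 46. Same-numbered libraries did not deviate together (correlations of -0.0977 to 0.0465), so no pairing by number was seen. The study's reporting summary gives isolation and sequencing as done 3 times, with 1 limb bud pair per genotype. Whether a run shared a replicate number is not given. A fit with the replicate block gave 6, 250, 5 and 363.

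The mean share of *Hoxa11* cells was 10.1% in Wt and 18.8% in *E1C5*Δ/Δ without the *Grem1* criterion, 12.2%, 16.2% and 18.9% (Wt, *E1C8*Δ/Δ, *E1C5*Δ/Δ) after thinning and 3.71%, 4.07% and 8.72% with at least 5 UMIs. Leaving out 1 library gave 6.42% to 7.98%, 7.80% to 9.12% and 14.0% to 14.8%. Directions turned for *Hoxd13* in both mutants (-0.10 with the term for sex, -0.45 without the *Grem1* criterion, -0.18 after thinning, -0.014 to 0.21 with 1 library left out), for *Fgf10* (0.035 after thinning, 0.020 with at least 5 UMIs, -0.20 to 0.17 with 1 library left out) and for *Pf4* between the mutants (-0.12 with at least 5 UMIs). They turned for the difference of *Jag1* (-0.048 against cells without *Hoxa13*) and, against cells without the *Hox11* genes, of *Jag1* (-0.26), *Sall3* (-0.23) and *Ptch1* (-0.31). The causes were not tested.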
